A study of Petromyzon marinus with 12 samples.

Results

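Solute carriers are membrane proteins that move sugars, amino acids, ions, vitamins, metals and nucleotides across cell and organelle membranes. They were followed here in whole sea lamprey (Petromyzon marinus) embryos through 194 of the 22407 gene models in the deposited count table. A gene model was taken when its symbol began with SLC and a number, other than the mitochondrial SLC25 carriers, and when it had a mean of at least 50 counts over the 12 libraries. RNA was sequenced at day 2 and day 3 from wildtype embryos and from knockouts of KMT1 or KMT5A, with 2 libraries in each of the 6 groups. By the labels, about 100 frozen embryos raised at 18 °C were pooled for each library. Per the labels, knockouts were made by injecting Cas9 protein with guide RNAs and a fluorescent dextran, and injected embryos were kept by their fluorescence 24 hours after fertilization. Such embryos can be mosaics of edited and unedited cells. The labels do not say how the wildtype embryos were handled, and they do not name the guides. The series title places the work in embryos that discard part of their genome during development, and KMT1 and KMT5A are histone methyltransferases.

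As background, solute carriers are sorted into numbered families by sequence, and members of a family often share a kind of cargo. Some couple their cargo to the sodium gradient that the sodium pump maintains (SLC5, SLC6, SLC12, SLC20, SLC34, SLC38), some exchange one solute for another (SLC4, SLC7, SLC26), and some work in the Golgi, lysosome or vesicles (SLC35, SLC17, SLC18, SLC66). An early fish embryo lives on yolk and on RNA that the mother put in the egg, and it replaces maternal with embryonic RNA as its own genome is switched on. The roles named here are those known from mammals, because each lamprey gene model was named by its match to a human protein.

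The 194 gene models carried 155 symbols and fell into 46 numbered families, and 4 of them are named after a carrier without being one. The 4 are the kanadaptin gene SLC4A1AP, SLC7A6OS and 2 models of the scaffold protein SLC9A3R2. The largest families were SLC35 with 20 members, SLC7 and SLC16 with 12 each, SLC39 with 11 and SLC38 with 10. Identity to the matched human protein ran from 29% to 82.1% with a median of 57.2%. The median was 54.8% for all gene models with a symbol and a mean of at least 50 counts. They were spread thinly over the genome, with 179 of them on 62 numbered chromosomes. In 35 cases 1 symbol was carried by more than 1 gene model, which covered 74 members, and the gene model identifier is given wherever a symbol was shared. The sources used here do not say how reads that match several copies were assigned, so values of copies are uncertain to that extent. Another 79 SLC gene models lay under the count threshold, 47 of them at 0 in every library. Just inside the threshold were SLC13A1 with a mean of 50.1 counts, SLC2A9 with 50.8 and SLC5A7 with 53.5, and just outside it were a model of SLC9A3 with 48.2, SLC1A6 with 47.1 and a model of SLC7A9 with 44.1. All 194 members passed the filter on low counts and were tested.

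Total counts ran from 61886305 to 89061394 per library. Levels are given as CPM, counts of a gene scaled to a common library total with edgeR's TMM library sizes. In 2 libraries, 2 gene models with no named protein, typed as rRNA (PM00065) and as mRNA (PM00001) in the deposited annotation, took many of the counts, 6.99% in day 3 KMT1 replicate 2 and 15.3% in day 3 KMT5A replicate 1 against 0.411% to 0.599% in the other libraries. The labels call the values raw counts. They were handled here as estimated counts, in which an exact 0 can be a failed estimate. Of the 194 members, 56 were at 0 in at least 1 library and 28 were at 0 in one library of a group and at 50 counts or more in the other, so a member at 0 is only said to be listed at 0 and is given no fold change. The targeted gene KMT5A was at 373 and 389 CPM in day 2 wildtype and at 382 and 367 CPM in day 2 KMT5A knockouts, and at day 3 it was at 197 and 208 CPM in wildtype and at 74.5 and 84.6 CPM in KMT5A knockouts. SUV39H2, taken as the KMT1 gene by its name, was at 120 and 119 CPM in day 2 wildtype, 145 and 151 CPM in day 2 KMT1 knockouts, 51.6 and 56.1 CPM in day 3 wildtype and 32.7 and 36.8 CPM in day 3 KMT1 knockouts. RNA level alone does not show editing. Stage markers moved with time. ZAR1, a maternal RNA, was at 919 to 947 CPM in day 2 wildtype and at 282 to 288 CPM in day 3 wildtype. FOXA2, an endoderm and midline factor, was at 8.99 to 10.1 and at 664 CPM. Values of ZAR1, FOXA2, SOX2 and TBXT, here and below, are sums over 2 gene models each. The labels do not say that pools came from separate clutches, so the p-values measure the spread between these pools only. In whole embryos, fewer cells of a type and less RNA per cell cannot be told apart.

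At day 2, wildtype solute carrier RNA was spread over many members, and by day 3 a single sodium chloride carrier dominated it. The summed level of the 194 members was 6168 and 6199 CPM in the 2 day 2 wildtype libraries and 11071 and 10654 CPM in the 2 at day 3. SLC12A3 (PM13099, chromosome 25, 4626686 to 4655712 in the deposited annotation, 26 merged exons), the thiazide-sensitive sodium chloride cotransporter of the mammalian kidney, made up 0.27% ± 0.02 of that sum at day 2 and 35.3% ± 0.04 at day 3 (SD, n = 2). Without it the sum was 6167 ± 20.2 CPM at day 2 and 7023 ± 195 CPM at day 3 (SD, n = 2). At day 2, 14 members held 50% of the sum, and at day 3, 5 members did. Among all 22407 gene models ranked by mean CPM per kb of exon, SLC12A3 (PM13099) stood at place 7899 in day 2 wildtype and at place 89 in day 3 wildtype.

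**Figure D1:**
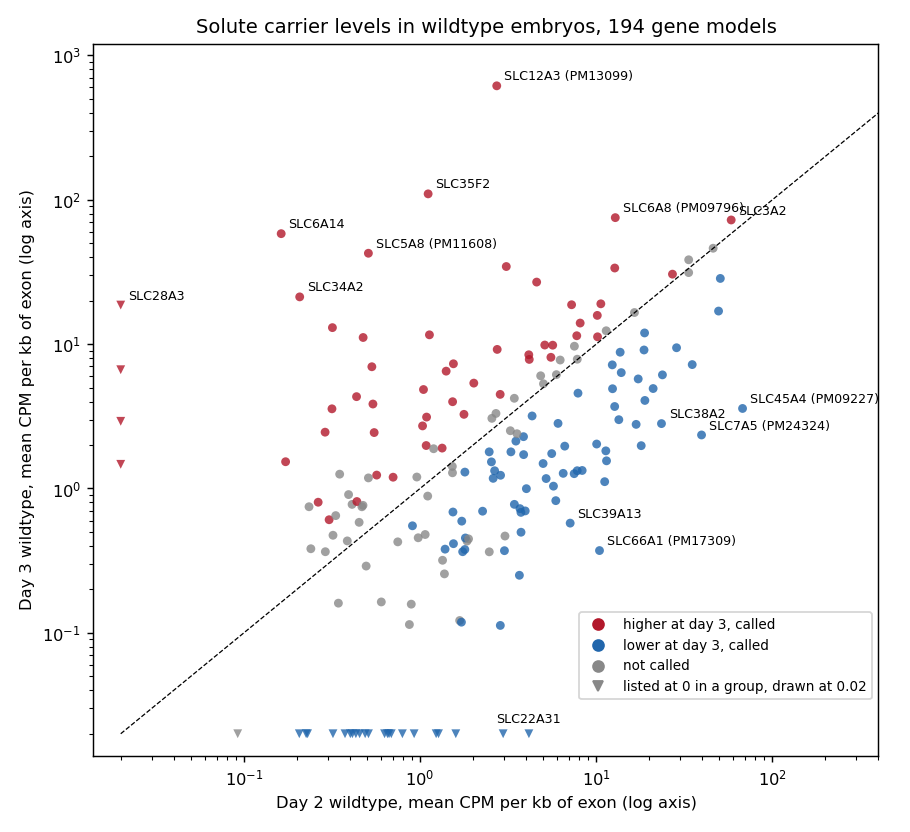
Mean CPM per kb of exon of each of the 194 members in wildtype embryos, day 2 on the horizontal and day 3 on the vertical log axis (n = 2 libraries each), coloured by edgeR's call, with the dashed line marking equal levels and triangles marking members listed at 0 in a group. SLC12A3 (PM13099) stands alone at the top with 616 CPM per kb at day 3, and SLC45A4 (PM09227), the highest member at day 2 with 67.7 CPM per kb, lies far below the line.

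Compared between genes per kb of exon, the highest level in day 2 wildtype was that of SLC45A4 (PM09227), a member of the proton-coupled sugar carrier family, at 67.7 CPM per kb. It was followed by SLC3A2 at 58.4 CPM per kb, the heavy chain that carries SLC7 exchangers to the surface, and by the phosphate carrier SLC20A2 (PM08799) at 50.6 CPM per kb. Next came the sodium potassium chloride cotransporter SLC12A2 (PM17870) at 49.5, the choline carrier SLC44A1 (PM18843) at 46.1 and the large neutral amino acid exchanger SLC7A5 (PM24324) at 39.6 CPM per kb. In day 3 wildtype the order was SLC12A3 (PM13099) at 616, SLC35F2 at 110, the creatine carrier SLC6A8 (PM09796) at 75.2, SLC3A2 at 72.5 and the amino acid carrier SLC6A14 at 58.2 CPM per kb. SLC3A2 and SLC44A1 (PM18843), at 46.2 CPM per kb at day 3, were among the 6 highest on both days.

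From day 2 to day 3 in wildtype, 144 of the 194 members changed by edgeR's quasi-likelihood test, 53 higher and 91 lower (74.2%, against 66.1% of all 15615 genes tested). A call here means a Benjamini-Hochberg adjusted p under 0.05 over all genes tested. The members had to have a mean of at least 50 counts, whereas the genes tested had only to pass the low-count filter. Shares of members and of all genes, here and below, are therefore not matched for level. Of all genes tested, 4536 were called higher and 5785 lower, which is 56.1% of calls lower, against 63.2% of the calls among members. Among the 160 members above 0 in all 4 libraries the median log2 fold change was -0.28, against -0.04 for all such genes. ZAR1 fell and FOXA2 rose over the same libraries as given above, and their part in these results was not tested.

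Among members above 0 in all 4 libraries, the steepest rises were of SLC6A14, SLC12A3 (PM13099), SLC34A2, SLC35F2 and SLC5A8 (PM11608). SLC12A3 (PM13099) was at 16.2 and 17.8 CPM in day 2 wildtype and at 3910 and 3768 CPM in day 3 wildtype. Both day 3 libraries lay far above both day 2 libraries, a log2 fold change of 7.82 with SE 0.16 and an edgeR adjusted p of 1.25e-08, which is 226-fold. SLC6A14, a carrier of neutral and cationic amino acids, was at 1.21 and 1.43 CPM and then at 474 and 471 CPM (log2 fold change 8.48, SE 0.90, edgeR adjusted p = 5.51e-05). SLC35F2, of the SLC35 family, was at 5.10 and 6.23 CPM and then at 565 and 555 CPM (log2 fold change 6.63, SE 0.12, edgeR adjusted p = 9.64e-09). None of these groups overlapped.

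SLC5A8 (PM11608, chromosome 21), a sodium-coupled carrier of short monocarboxylates, was at 4.80 and 6.59 CPM at day 2 and at 480 and 474 CPM at day 3, a log2 fold change of 6.38 with SE 0.16. SLC34A2, a sodium phosphate cotransporter of epithelia, was at 1.05 and 1.01 CPM and then at 113 and 98.1 CPM, a log2 fold change of 6.68 with SE 0.23. Both sets of day 3 values lay above all day 2 values, and both changes were called by edgeR. The glutamate carrier SLC1A2 rose from a mean of 4.34 to 178 CPM (log2 fold change 5.35), the sulphate carrier SLC26A2 from 3.35 to 43.8 CPM (3.71), the mitochondrial sodium calcium exchanger SLC8B1 from 14.5 to 162 CPM (3.48) and the biotin and pantothenate carrier SLC5A6 from 16.5 to 170 CPM (3.36). The creatine carrier SLC6A8 (PM09796) was at 60.6 and 62.8 CPM and then at 373 and 350 CPM, a log2 fold change of 2.55 with SE 0.06.

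Among members above 0 in all 4 libraries, the steepest falls were of SLC66A1 (PM17309), SLC45A4 (PM09227), SLC7A5 (PM24324), SLC44A1 (PM15956) and SLC39A13. SLC45A4 (PM09227) was at 288 and 298 CPM at day 2 and at 15.5 CPM in both day 3 libraries, a log2 fold change of -4.24 with SE 0.22 and an edgeR adjusted p of 8.87e-07. SLC38A2, a sodium-coupled carrier of small neutral amino acids, was at 161 and 167 CPM and then at 20.1 and 19.3 CPM, a log2 fold change of -3.06 with SE 0.04 and an edgeR adjusted p of 6.89e-09. In both genes every day 3 value lay under every day 2 value. The lysosomal cationic amino acid carrier SLC66A1 (PM17309) fell from a mean of 30.3 to 1.08 CPM (log2 fold change -4.81), the zinc carrier SLC39A13 from 33.4 to 2.70 CPM (-3.63), SLC66A3 from 26.9 to 2.69 CPM (-3.32) and the magnesium carrier SLC41A1 (PM09846) from 29.5 to 3.24 CPM (-3.18). The choline carrier SLC44A1 (PM15956) fell from 7.75 to 0.53 CPM (-3.87), and this call was lost when any 1 of the 4 wildtype libraries was left out. The glucose carrier SLC2A1 fell from 38.8 to 6.60 CPM (-2.55).

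The families are described next by their counts of calls, and over all genes tested 29% were called higher and 37% lower. In SLC38, the sodium-coupled neutral amino acid carriers, 8 of 10 members were called lower, 1 higher and 1 was not called. Per kb of exon, SLC38A2 at 23.5 and SLC38A4 at 11.4 CPM per kb had the highest levels of the family at day 2, and SLC38A4 went from 82.6 to 11.2 CPM. The member called higher was SLC38A10, from 0.474 to 4.02 CPM. In SLC7, the cationic amino acid carriers and exchanger light chains, 7 of 12 were called lower and 1 higher. Over all families listed as amino acid carriers, a list that leaves out SLC6, 19 of 33 members were called lower and 5 higher, and their summed level was 1060 ± 1.7 CPM at day 2 and 936 ± 17 CPM at day 3 (SD, n = 2). SLC6, which carries amino acids and amines with sodium and chloride, had 3 of 7 members called higher and 3 lower, and its summed level went from 110 ± 2.07 CPM to 869 ± 22.2 CPM (SD, n = 2). The counts for SLC38 and SLC7 were the same with relative log expression size factors and with library size alone.

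In SLC35, the nucleotide sugar carriers of the Golgi and endoplasmic reticulum, 5 of 20 were called higher and 8 lower, and with library size alone 2 were called higher. In SLC16, a family that includes the monocarboxylate carriers, 4 of 12 were higher and 7 lower. SLC5, the sodium-coupled carriers of sugars, vitamins and organic acids, had 3 of 6 called higher and 0 lower, with 1 of those 3, SLC5A9, listed at 0 at day 2. In SLC2, the facilitative glucose carriers, 4 of 6 were called lower and 0 higher, with SLC2A11 and SLC2A13 listed at 0 at day 3. The zinc carriers of SLC30 and SLC39 were split, 6 of 16 higher and 5 lower, with SLC30A3 going from 75.8 to 196 CPM and SLC30A5 from 88.1 to 29.2 CPM.

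**Figure D2:**
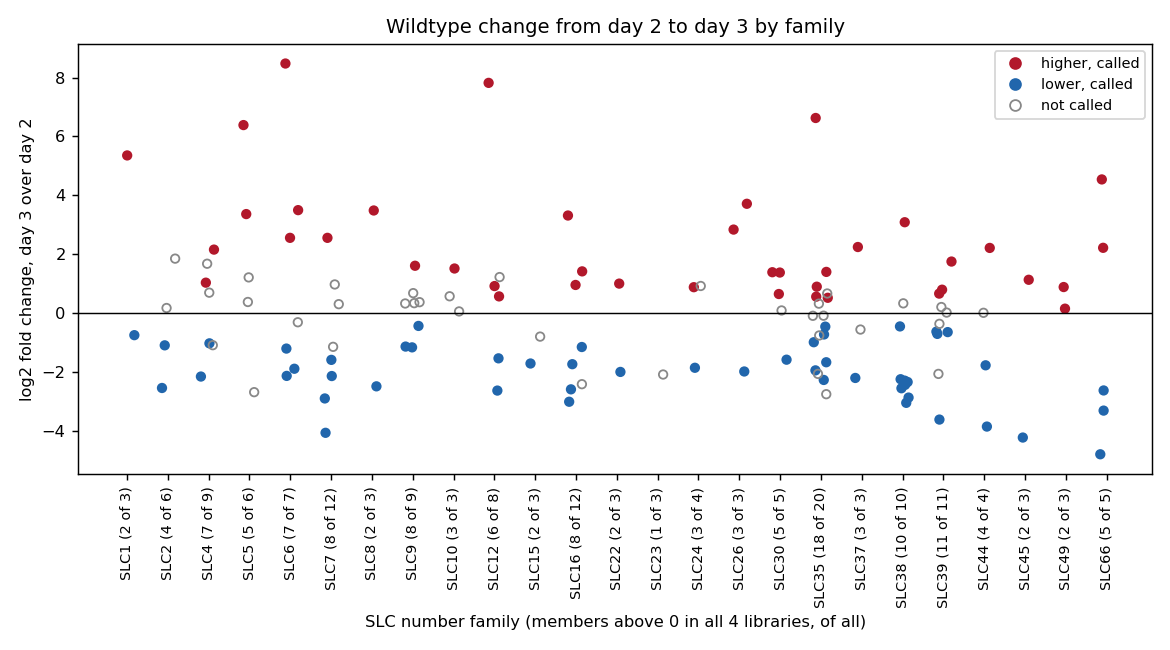
Fitted log2 fold change of day 3 over day 2 in wildtype for members above 0 in all 4 libraries, in every SLC number family with at least 3 members (filled red higher and blue lower by edgeR's call, open grey not called). In SLC38 all but 2 of the 10 points are filled blue, whereas SLC6 reaches from -2.14 to 8.48.

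Copies that share a symbol did not always change alike. Of the 35 symbols carried by more than 1 member, 24 had at least 2 members called in wildtype over time. In 11 of these all called copies were lower, in 3 all were higher, and in 10 one was higher and another lower. Of all calls among members 36.8% were higher and 63.2% lower, so members with different symbols often differ in direction too. Shared symbols among all genes were not counted, so these counts do not set the carriers apart. In 7 of the 10 both copies were above 0 in all 4 libraries, and both lay on different chromosomes or scaffolds. SLC7A5 (PM24324, chromosome 69) was at 149 and 143 CPM at day 2 and at 6.90 and 10.4 CPM at day 3, a log2 fold change of -4.08 with SE 0.41. SLC7A5 (PM13110, chromosome 25) was at 15.5 and 17.6 CPM and then at 99.4 and 94.6 CPM, a log2 fold change of 2.55 with SE 0.10. Per kb of exon, the copy on chromosome 69 was the higher of the 2 at day 2, at 39.6 against 4.59 CPM per kb, and the copy on chromosome 25 was the higher at day 3, at 26.9 against 2.35 CPM per kb. SLC3A2, the heavy chain that partners SLC7A5 in mammals, was at 412 and 409 CPM and then at 509 CPM in both libraries, a log2 fold change of 0.31 with SE 0.05.

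The order per kb of exon also turned for 4 more pairs. SLC44A2, a choline carrier relative, had 1 copy that went from a mean of 107 to 31 CPM (PM12050) and another from 12.2 to 56.2 CPM (PM22533). SLC66A2 had 1 copy that went from 127 to 20.4 CPM (PM13220) and another from 7.44 to 34.5 CPM (PM11534). SLC66A1 (PM17309) fell as given above, and SLC66A1 (PM17528) rose from 0.258 to 6.04 CPM, a call lost without day 2 wildtype replicate 1. The monocarboxylate carrier SLC16A7 went from 17.5 to 5.21 CPM in PM16500 and from 2.99 to 29.6 CPM in PM18203. The order held for SLC12A2, where PM17870 went from 414 to 142 CPM and PM02730 from 24.3 to 45.8 CPM, and for the sodium proton exchanger SLC9A7 (PM19528 and PM24134).

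**Figure D3:**
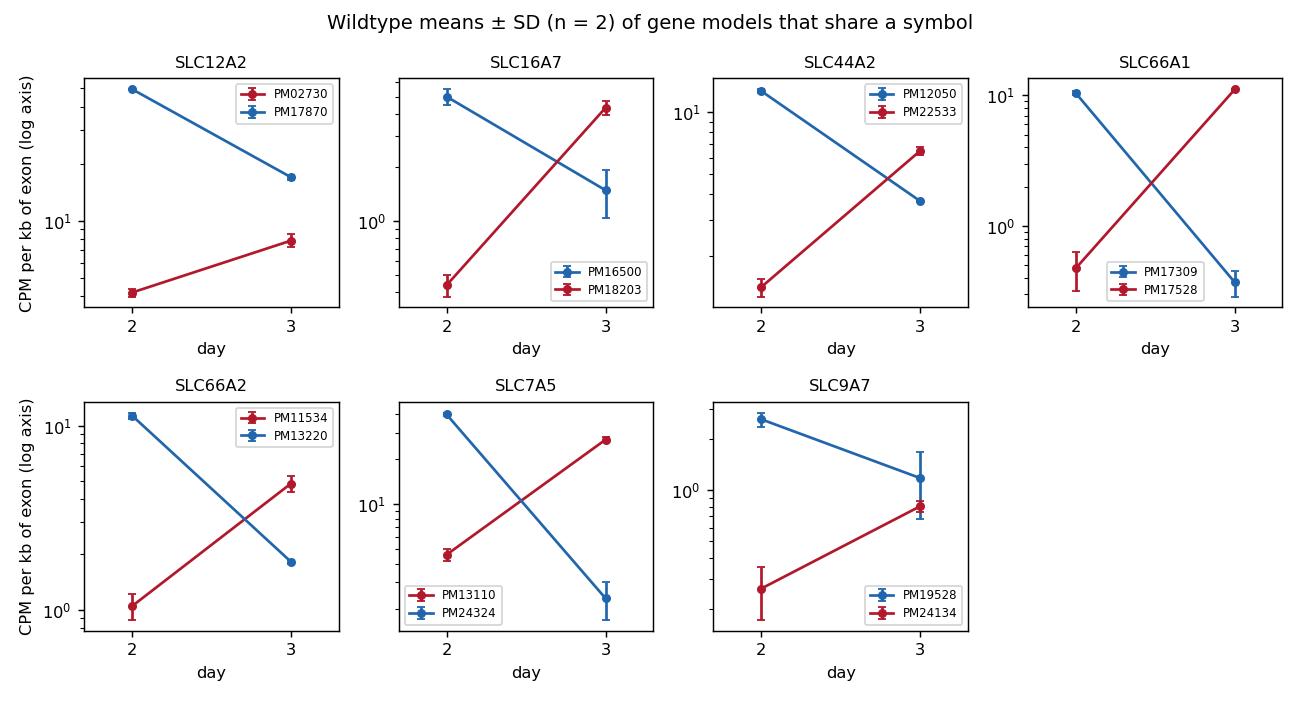
Mean CPM per kb of exon ± SD (n = 2, log axis) in day 2 and day 3 wildtype for the 7 symbols with 1 copy called higher (red) and another called lower (blue), all above 0 in the 4 libraries. For SLC7A5, SLC44A2, SLC66A1, SLC66A2 and SLC16A7 the lines cross, so a different copy has the higher level on each day.

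Some members were listed at 0 on one day and well above it on the other, 25 of them with at least 50 counts in both libraries of the other day. The nucleoside carrier SLC28A3 was listed at 0 in both day 2 wildtype libraries and was at 61.0 and 54.0 CPM at day 3. The ascorbate carrier SLC23A1 (PM07769) was listed at 0 and then at 19.5 and 19.4 CPM, and the sodium-coupled sugar carrier SLC5A9 was listed at 0 and then at 9.90 and 12.7 CPM. These 3 were also listed at 0 in all 4 day 2 knockout libraries. In the other direction SLC22A31, of the organic ion carrier family, was at 65.8 and 72.3 CPM at day 2 and listed at 0 in both day 3 wildtype libraries, and the bicarbonate carrier SLC4A4 (PM17959) was at 20.5 and 19.6 CPM and then listed at 0. Of the 160 members above 0 in all 4 libraries, 116 were called, 49 higher and 67 lower. The shares of all genes that match this count and the 25 listed at 0 were not counted.

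Other transport genes gave a frame for these changes. Of 7 gene models of the sodium pump, 4 were called higher and 1 lower from day 2 to day 3. Of 33 mitochondrial SLC25 carriers, 14 were called higher and 13 lower, with a median log2 fold change of 0.54 among those above 0. Of 27 ABC transporters, which are driven by ATP, 11 were called higher and 9 lower. Of 3 aquaporin models, AQP3 (PM17661) was called higher with a log2 fold change of 0.98, and the other 2, AQP3 (PM02415) and AQP12B, were not called.

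At day 2, embryos of either knockout had less RNA of SLC12A3 (PM13099) and of the creatine carrier copy SLC6A8 (PM09796) than wildtype, and more of SLC38A2, SLC20A2 (PM08799) and SLC5A8 (PM23715). In KMT1 knockouts 27 of 194 members were called, 20 higher and 7 lower (13.9%, against 9.97% of all genes). In KMT5A knockouts 22 were called, 15 higher and 7 lower (11.3%, against 9.07% of all genes). The share called higher was 10.3% and 7.73% of members in KMT1 and KMT5A knockouts, against 3.18% and 2.64% of all genes, and the share called lower was 3.61% of members in both, against 6.79% and 6.43%. The median log2 fold change of members above 0 was 0.06 and 0.05, against -0.04 for all such genes in both. The knockouts were each set against the same 2 wildtype libraries, so likeness between them is partly that of a shared reference. At day 2 ZAR1 was at 837 to 851 CPM in KMT1 and 845 to 857 CPM in KMT5A knockouts, against 919 to 947 CPM in wildtype. FOXA2 was at 6.56 to 7.92 and 7.34 to 7.82 against 8.99 to 10.1 CPM. Of the markers described further on, DDX4 and NPM2 lay under wildtype in both, SOX2 above it, and TBXT and GSC overlapped it. SOX17 lay above it only with KMT1, and MYOD1 under it only with KMT5A. The part of stage in the day 2 results was not tested.

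SLC12A3 (PM13099), still low at this age, was at 16.2 and 17.8 CPM in wildtype, at 3.15 and 2.67 CPM in KMT1 knockouts and at 3.56 and 3.15 CPM in KMT5A knockouts. All 4 knockout values lay under both wildtype values, with log2 fold changes of -2.55 (SE 0.14, edgeR adjusted p = 0.000183) and -2.34 (SE 0.13, adjusted p = 0.000178). The creatine carrier SLC6A8 (PM09796) was at 60.6 and 62.8 CPM in wildtype, 19 and 18 CPM in KMT1 knockouts and 30.1 and 32.2 CPM in KMT5A knockouts. The 3 groups did not overlap, with log2 fold changes of -1.74 (SE 0.06, edgeR adjusted p = 7.09e-05) and -0.98 (SE 0.06, adjusted p = 0.000178). Both calls held in both knockouts under every alternative run. The other SLC12A3 model, SLC12A3 (PM13113), was at 1.06 and 1.55 CPM in wildtype, 2.35 and 2.00 CPM in KMT1 knockouts and 1.67 and 2.5 CPM in KMT5A knockouts, was not called in either, and was listed at 0 in all 6 day 3 libraries. Another copy, SLC6A8 (PM18341), went the other way, at 6.0 and 6.38 CPM in wildtype and 9.22 and 9.87 CPM in KMT1 knockouts. edgeR called that rise of 0.62 on the log2 scale, with an adjusted p of 0.0283, and the call was lost in 6 of the 10 alternatives run for it. In KMT5A knockouts this copy was at 10.1 and 7.75 CPM, 0.53 above wildtype on the log2 scale and not called (edgeR adjusted p = 0.0595).

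The monocarboxylate carrier SLC16A7 (PM18203) was at 2.70 and 3.28 CPM in wildtype, 1.30 CPM in both KMT1 knockout libraries and 0.915 and 1.46 CPM in KMT5A knockouts, log2 fold changes of -1.20 and -1.33. The sulphate carrier SLC26A2 was called lower in KMT1 knockouts, with a log2 fold change of -1.18 that lost its call when any 1 library compared was left out. SLC5A8 (PM11608) was at 4.80 and 6.59 CPM in wildtype and at 2.58 and 2.47 CPM in KMT1 knockouts, and it was listed at 0 in both KMT5A knockout libraries against 436 and 663 counts in wildtype. Smaller falls were called in both knockouts for SLC3A2, with log2 fold changes of -0.36 and -0.31, and for the zinc carrier SLC39A9, with -0.37 and -0.38. Of 10 alternatives, KMT1 and KMT5A calls were lost in 4 and 2 for SLC16A7 (PM18203), 1 and 3 for SLC3A2 and 4 and 5 for SLC39A9. The vesicular acetylcholine carrier SLC18A3 was called lower in KMT5A knockouts, with -0.68, a call lost when any 1 library compared was left out.

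Of the members higher in the knockouts at day 2, SLC38A2 was at 161 and 167 CPM in wildtype, 268 and 260 CPM in KMT1 knockouts and 247 and 254 CPM in KMT5A knockouts. All knockout values lay above the wildtype values, with log2 fold changes of 0.69 (SE 0.04, edgeR adjusted p = 0.000219) and 0.61 (SE 0.04, adjusted p = 0.000269), held under every alternative. SLC5A8 (PM23715, chromosome 65), a separate copy from the one on chromosome 21, was at 5.07 and 4.76 CPM in wildtype, 11 and 9.32 CPM in KMT1 knockouts and 10.8 and 13.1 CPM in KMT5A knockouts, log2 fold changes of 1.05 and 1.28. The phosphate carrier SLC20A2 (PM08799) was at 270 and 284 CPM in wildtype, 481 and 439 CPM in KMT1 knockouts and 412 and 391 CPM in KMT5A knockouts, log2 fold changes of 0.73 and 0.54. Of the 10 alternatives run for each call, 3 lost the KMT1 call and 5 the KMT5A call of SLC20A2 (PM08799). For SLC5A8 (PM23715) these were 1 and 0. The 2 SLC5A8 copies therefore moved in opposite directions in KMT1 knockouts.

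In SLC4, a family that includes bicarbonate carriers, 3 of 9 members were called higher and 0 lower in each knockout. SLC4A2 (PM03993), SLC4A7 and SLC4A11 had log2 fold changes of 0.55, 0.59 and 0.49 in KMT1 knockouts and 0.48, 0.47 and 0.38 in KMT5A knockouts. The vitamin carrier SLC5A6 had log2 fold changes of 0.68 and 0.51, the lactate carrier SLC16A3 0.64 and 0.57, SLC16A6 (PM13398) 0.64 and 0.58, the mitochondrial zinc carrier SLC30A9 0.67 and 0.41, SLC8B1 0.56 and 0.48 and SLC49A3 0.47 and 0.52, all called in both. The anion carrier relative SLC26A5, prestin in mammals, had 0.61 and 1.25. SLC2A1 was called higher in KMT1 knockouts with 0.60, and SLC35D1 (PM16026), a nucleotide sugar carrier, was called higher in KMT5A knockouts with 1.24, a call lost when any 1 library compared was left out. Of 10 alternatives, KMT1 and KMT5A calls were lost in 3 and 4 for SLC16A3 and in 1 and 3 for SLC16A6 (PM13398). The KMT1 call was lost in 3 for SLC5A6 and in 1 for SLC30A9. No sodium pump model was called in either knockout by edgeR, and AQP3 (PM17661) was called lower in both, with -0.79 and -0.80, while the other AQP3 model was not called.

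The number of calls at day 2 depended on scaling and on each library. With library size alone, 6 members (3 higher and 3 lower) were called in KMT1 knockouts and 8 (5 higher and 3 lower) in KMT5A knockouts, and with any 1 library compared left out the counts were 13 to 15 and 10 to 14. In those fits the KMT1 calls were 8 to 11 higher and 4 to 5 lower. The KMT5A calls were 5 higher and 5 lower without wildtype replicate 1, 8 and 5 without wildtype replicate 2, 7 and 7 without KMT5A replicate 1 and 6 and 7 without KMT5A replicate 2, so the excess of higher calls in KMT5A knockouts was present in 1 of the 4.

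**Figure D4:**
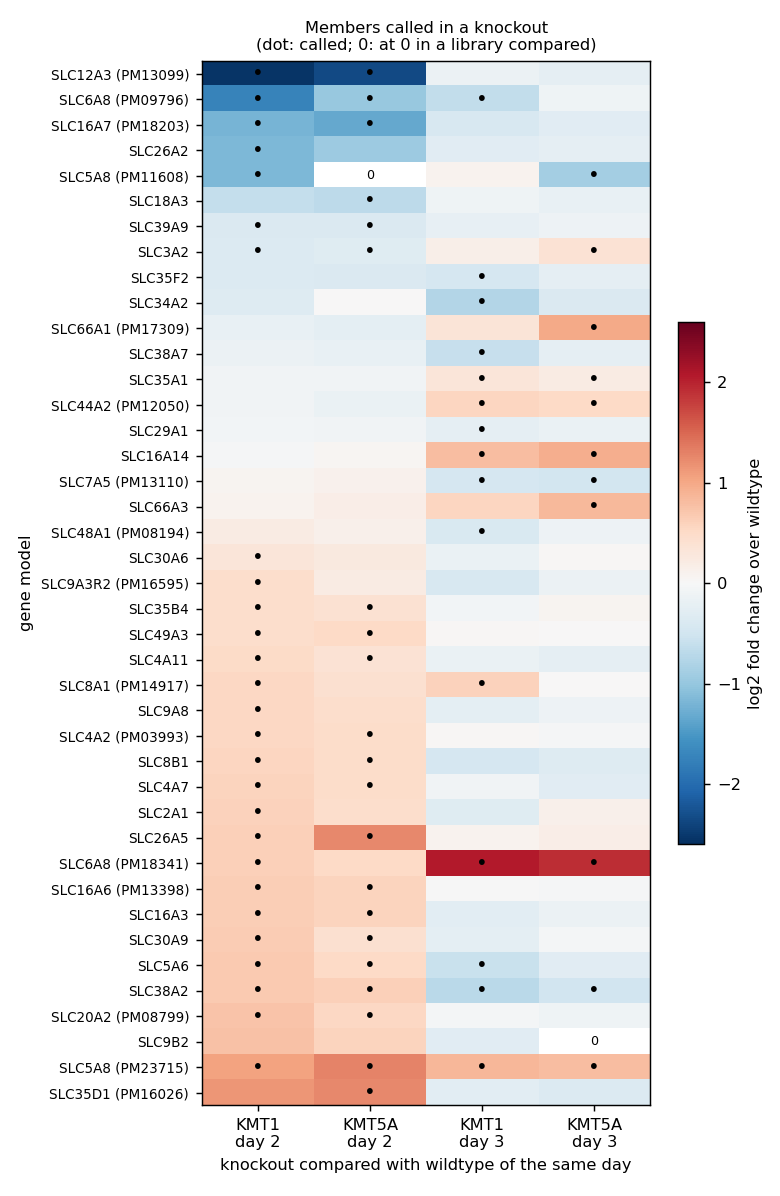
Fitted log2 fold change over wildtype of the same day (colour) for the 41 members called in at least 1 of the 4 knockout comparisons, sorted by the change in day 2 KMT1 knockouts, with dots for edgeR calls and 0 for members at 0 in a library compared. SLC12A3 (PM13099) and SLC6A8 (PM09796) head the blue end at day 2, and SLC6A8 (PM18341) is the deepest red at day 3 with 2.06 and 1.92.

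At day 3 the largest difference from wildtype among called members above 0 in every library compared was a rise of the creatine carrier copy SLC6A8 (PM18341). SLC9B2, listed at 0 in day 3 KMT5A knockouts and called there, is given further on without a fold. In KMT1 knockouts 15 members were called, 6 higher and 9 lower (7.73%, against 6.26% of all genes), and in KMT5A knockouts 12, 8 higher and 4 lower (6.19%, against 5.30% of all genes). The share called higher was 3.09% and 4.12% of members, against 4.67% and 3.33% of all genes, and the share called lower was 4.64% and 2.06%, against 1.59% and 1.97%. SLC6A8 (PM18341, chromosome 42) was at 4.94 and 4.98 CPM in wildtype, 20.4 and 20.8 CPM in KMT1 knockouts and 17.7 and 19.7 CPM in KMT5A knockouts. All knockout values lay above wildtype, with log2 fold changes of 2.06 (SE 0.14, edgeR adjusted p = 0.00045) and 1.92 (SE 0.14, adjusted p = 0.000373). In wildtype this copy was at 6.0 and 6.38 CPM at day 2 and was not called over time. SLC12A3 (PM13099), at 3517 and 3354 CPM in KMT1 knockouts and 2873 and 3651 CPM in KMT5A knockouts against 3910 and 3768 CPM in wildtype, was not called at day 3.

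SLC38A2 was lower in both knockouts at day 3, at 12.4 and 12 CPM in KMT1 knockouts and 13.8 and 14.1 CPM in KMT5A knockouts against 20.1 and 19.3 CPM in wildtype. Its log2 fold changes were -0.69 (edgeR adjusted p = 0.000274) and -0.50 (adjusted p = 0.000524). SLC7A5 (PM13110), the copy that rose in wildtype, was at 69.3 and 73.9 CPM and at 74.3 and 65.9 CPM against 99.4 and 94.6 CPM, log2 fold changes of -0.44 and -0.47. Both genes were under wildtype in every knockout library. The SLC38A2 calls were each lost in 1 of 11 alternatives, and those of SLC7A5 (PM13110) in 8 of 11 with KMT1 and 4 of 11 with KMT5A. SLC3A2 was called higher in KMT5A knockouts, at 684 and 634 CPM against 509 CPM in both wildtype libraries, a log2 fold change of 0.37.

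Called higher in both knockouts at day 3 were SLC5A8 (PM23715), with log2 fold changes of 0.86 and 0.81, SLC16A14 with 0.81 and 0.95, SLC44A2 (PM12050) with 0.57 and 0.52 and the CMP-sialic acid carrier SLC35A1 with 0.31 and 0.21. SLC66A1 (PM17309) and SLC66A3 were called higher in KMT5A knockouts with 0.98 and 0.85, and the sodium calcium exchanger SLC8A1 (PM14917) in KMT1 knockouts with 0.59. SLC16A14, SLC44A2 (PM12050), SLC35A1, SLC66A1 (PM17309), SLC66A3 and SLC8A1 (PM14917) all fell in wildtype from day 2 to day 3. SLC5A8 (PM23715) did not, at 5.07 and 4.76 CPM in day 2 wildtype and 6.03 and 6.67 CPM in day 3 wildtype. SLC3A2, called higher with KMT5A, rose in wildtype, and SLC6A8 (PM18341) was not called over time, as given above. The wildtype comparison over time uses the same day 3 wildtype libraries. Of the 11 alternatives run for each call, KMT1 and KMT5A calls were lost in 5 and 7 for SLC5A8 (PM23715), 5 and 5 for SLC16A14, 3 and 5 for SLC44A2 (PM12050) and 3 and 7 for SLC35A1. The KMT5A calls of SLC66A1 (PM17309) and SLC66A3 were lost in 5 and 7, and the KMT1 call of SLC8A1 (PM14917) in 5. ZAR1 was at 358 to 415 CPM in day 3 KMT1 knockouts and 357 to 404 CPM in day 3 KMT5A knockouts, against 282 to 288 CPM in wildtype, and GSC, a gene of the embryonic organizer, at 45.5 to 58.0 and 52 to 56.5 against 72.4 to 73.9 CPM. DDX4, a germ plasm gene that was at 6.96 to 7.26 CPM in day 2 wildtype, was at 3.44 to 4.88 and 5.4 to 5.69 against 3.37 to 3.46 CPM, and NPM2, a maternal gene, at 15.7 to 17.5 and 15.1 to 16.5 against 15.2 to 15.7 CPM. FOXA2 was at 673 to 711 and 630 to 712 CPM against 664 CPM, and TBXT, a mesoderm gene, at 74.9 to 77.6 and 68.6 to 77.7 against 73.1 to 79.3 CPM. SOX2, which was lower at day 3 than at day 2 in wildtype, was at 281 to 285 and 262 to 265 against 300 to 304 CPM. The muscle factor MYOD1 was at 8.51 to 11.4 and 7.44 to 9.45 against 8.23 to 10.1 CPM, and SOX17 and NOG were listed at 0 in all 6 day 3 libraries. The part of stage in the day 3 results was not tested.

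Called lower in day 3 KMT1 knockouts were SLC34A2, at 52.3 and 72.1 CPM against 113 and 98.1 CPM in wildtype, a log2 fold change of -0.76, and SLC6A8 (PM09796), at 222 and 239 CPM against 373 and 350 CPM, with -0.65. SLC38A7, SLC5A6, SLC35F2, the haem carrier SLC48A1 (PM08194) and the nucleoside carrier SLC29A1 were also called lower there, with log2 fold changes from -0.60 to -0.23. Of the 11 alternatives run for each, 8 lost the call of SLC35F2 and of SLC48A1 (PM08194), 7 that of SLC34A2 and of SLC38A7, 6 that of SLC5A6 and 1 that of SLC6A8 (PM09796).

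The day 3 calls and their split into higher and lower depended on the fit. With relative log expression size factors the KMT1 split was 7 higher and 5 lower, and with library size alone the splits were 1 higher and 2 lower with KMT1 and 1 higher and 3 lower with KMT5A. In a fit of the compared libraries alone, edgeR called 0 members in either knockout, with 37 and 23 members at an unadjusted p under 0.05. Over all genes these day 3 fits called 0.00757% with KMT1 and 0.108% with KMT5A. At day 2 the same kind of fit called 50 and 30 members (26.3% and 15.8%, against 16.9% and 13.4% of all genes). DESeq2, run as a separate alternative, called 40 and 25 at day 3 (20.6% and 12.9%, against 17.4% and 16.1% of all genes). With KMT5A the DESeq2 share of members lay under that of all genes. With the replicate number as a block, the KMT1 share was 5.15% of members against 5.28% of all genes. In some fits with 1 library left out, the share of members also lay under that of all genes, and in others above it. Leaving out both libraries rich in the 2 unnamed gene models, an alternative chosen after seeing the data, gave 34 calls with KMT1 (21 higher and 13 lower) and 18 with KMT5A (11 higher and 7 lower). With 1 library left out, the KMT1 split was 14 higher and 6 lower without KMT1 replicate 2, 7 and 2 without wildtype replicate 1, 5 and 6 without KMT1 replicate 1 and 1 and 3 without wildtype replicate 2. The KMT5A split was 7 higher and 18 lower without KMT5A replicate 2, 2 and 6 without wildtype replicate 2, 2 and 4 without KMT5A replicate 1 and 4 and 2 without wildtype replicate 1.

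**Figure D5:**
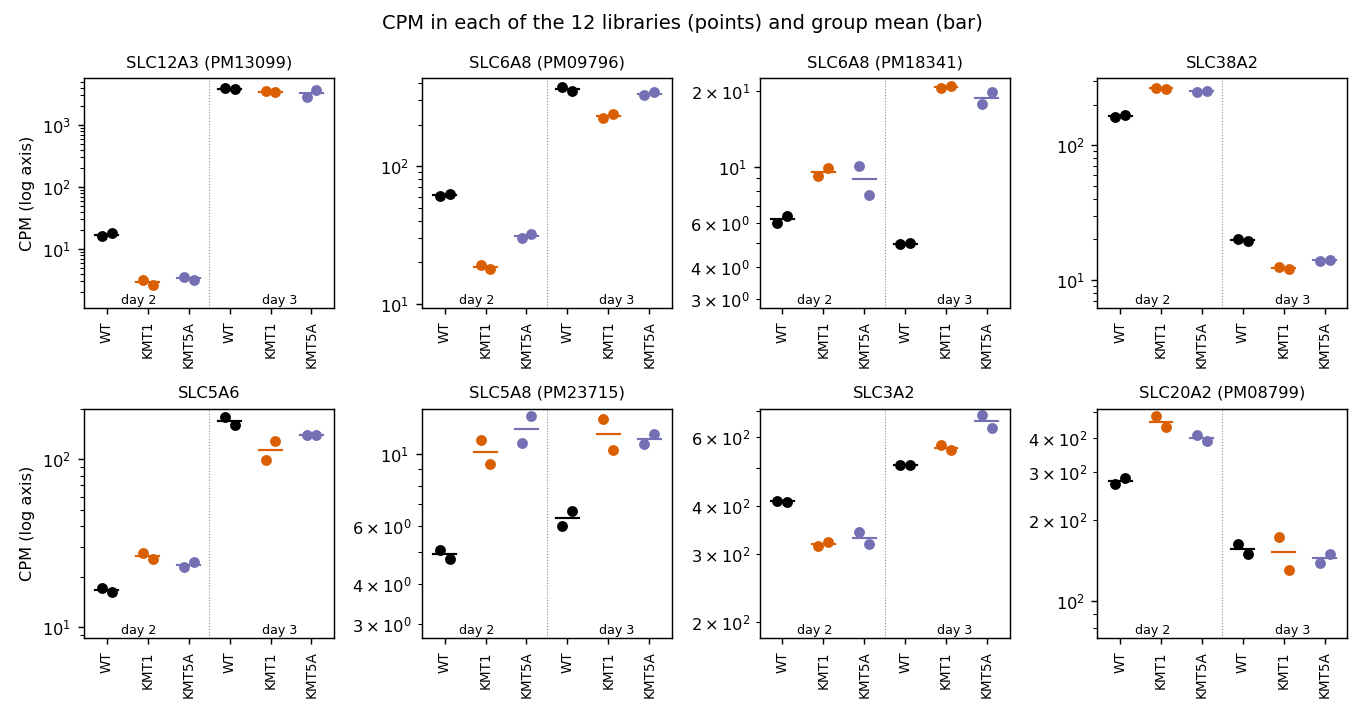
CPM (log axis) of 8 members in each of the 12 libraries, as points, with the group mean as a bar, day 2 to the left and day 3 to the right of the dotted line in each panel. SLC12A3 (PM13099) is lower in the knockouts at day 2 and not called at day 3, SLC38A2 is above wildtype at day 2 and below it at day 3, and SLC6A8 (PM18341) stands apart from wildtype most at day 3.

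The change of a knockout effect from day 2 to day 3 was tested directly as an interaction. It was called for 26 members with KMT1, 7 higher and 19 lower at day 3 (13.4%, against 10.2% of all genes), and for 22 with KMT5A, 9 higher and 13 lower (11.3%, against 9.65%). The share higher was 3.61% and 4.64% of members, against 7.30% and 6.47% of all genes. The share lower was 9.79% and 6.70%, against 2.91% and 3.18%. Each interaction subtracts the day 2 effect in the same libraries, so a rise at day 2 pushes it lower. These shares are therefore not independent of the day 2 shares given above. SLC38A2 changed from above to below wildtype, a difference of effects of -1.38 (SE 0.06, edgeR adjusted p = 0.000111) with KMT1 and -1.11 (SE 0.06, adjusted p = 0.000144) with KMT5A. SLC5A6 did the same, at 27.8 and 25.3 CPM in day 2 KMT1 knockouts against 17 and 16.1 CPM in wildtype, and at 99.4 and 129 CPM against 178 and 161 CPM at day 3, a difference of effects of -1.26 (SE 0.17). SLC12A3 (PM13099) had a difference of 2.39 (SE 0.18) with KMT1 and 2.10 (SE 0.18) with KMT5A, called at day 2 and not at day 3. SLC3A2 went from below wildtype at day 2 to above it at day 3, with differences of 0.52 and 0.68. Its day 3 rise was called with KMT5A but not with KMT1, at 573 and 556 CPM against 509 CPM in both wildtype libraries. With library size alone 4 interactions (1 higher and 3 lower) were called with KMT1 and 8 (2 higher and 6 lower) with KMT5A, and leaving out 1 library gave 12 to 32 with KMT1 and 11 to 38 with KMT5A, the most without day 3 KMT1 replicate 1 and without day 3 KMT5A replicate 2. The KMT5A split turned to 9 higher and 4 lower without day 2 KMT5A replicate 2, and was 7 and 6 without day 2 KMT5A replicate 1 or without day 3 wildtype replicate 1. With KMT1 the lower calls were the more numerous in every fit with 1 library left out.

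The 2 knockouts were told apart by few members. KMT5A against KMT1 knockouts gave 2 calls at day 2 (1.03%, against 0.147% of all genes, with 6 members at an unadjusted p under 0.05) and 3 at day 3 (1.55%, against 1.47%, with 27 members at an unadjusted p under 0.05), by edgeR. In all genes, 0.0128% were called higher and 0.134% lower in KMT5A than in KMT1 knockouts at day 2, and 0.371% and 1.10% at day 3. SLC6A8 (PM09796) was higher in KMT5A than in KMT1 knockouts on both days, with log2 fold changes of 0.75 (edgeR adjusted p = 0.00428) and 0.54 (adjusted p = 0.00325). Of the alternatives run, these calls were lost in 2 of 10 at day 2 and 2 of 11 at day 3. SLC5A8 (PM11608) was listed at 0 in KMT5A knockouts at day 2. At day 3 it was at 246 and 269 CPM in KMT5A knockouts, 496 and 518 CPM in KMT1 knockouts and 480 and 474 CPM in wildtype. Its day 3 log2 fold change in KMT5A knockouts over wildtype was -0.89 (edgeR adjusted p = 0.0111), a call lost in 5 of 11 alternatives. The day 3 call of SLC5A8 (PM11608) against KMT1 knockouts was lost in 4 of 11. SLC9B2, a sodium proton exchanger, was listed at 0 in both day 3 KMT5A knockout libraries, against 237 and 154 counts in KMT1 knockouts and 219 and 285 counts in wildtype. In a fit of the compared libraries alone edgeR called 0 members on either day, with 15 members at day 2 and 6 at day 3 at an unadjusted p under 0.05. Over all genes such fits called 0.0469% at day 2 and 0.00768% at day 3. DESeq2, run as a separate alternative, called 3 and 16 members (1.55% and 8.25%, against 0.629% and 7.35% of all genes).

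SLC6A8 (PM09796), SLC5A8 (PM11608) and SLC9B2 lay on the chromosomes of the targeted genes. SLC12A5, a cation chloride carrier on chromosome 45, did not. It too was listed at 0 in both day 3 KMT5A knockout libraries, and was at 2.4 and 2.76 CPM in day 3 KMT1 knockouts. In day 3 wildtype SLC12A5 was at 2.42 CPM in replicate 1 and listed at 0 in replicate 2. In the coordinates of the deposited annotation, KMT5A is on chromosome 21 at 11963808 to 11985404, and the only members on that chromosome were SLC9B2 at 11405782 to 11436922, 0.53 Mb away, and SLC5A8 (PM11608) at 386746 to 417175, 11.55 Mb away. SUV39H2 is on chromosome 14 at 8620044 to 8633357, and 5 members lay on that chromosome. Of these, SLC6A8 (PM09796) at 10306898 to 10348987 was 1.67 Mb away and SLC38A2 at 12625095 to 12646271 was 3.99 Mb away, and SLC16A4, SLC35E3 and SLC41A1 (PM09846) were not called in any knockout comparison with wildtype. In KMT5A knockouts SLC9B2 was at 545 and 319 counts at day 2, against 258 and 322 in wildtype, and was listed at 0 only at day 3. Whether position had a part in these values was not tested.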

How the data were processed

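The deposited table holds whole-number values per gene model and library, which the authors' labels call raw counts. Per the submitters' processing notes, HISAT2 2.2.1, StringTie 2.2.3 and DESeq2 1.42.1 were used. The genome build, strand setting and handling of multiply mapped reads are not given in the sources used here. The deposited values were handled as estimated counts, and rounding changed none. Symbols, positions and exons came from the deposited annotation, whose build is not named.

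All 22407 gene models entered edgeR 4.0.16 in R 4.3.3, and only solute carriers are printed. The quasi-likelihood F test was fitted on all 12 libraries with 6 group means, TMM normalization and the default low-count filter (15615 genes tested, 6 residual degrees of freedom). Benjamini-Hochberg adjustment ran over all genes tested, and 9 comparisons were made. Alternatives were other scalings, no filter, DESeq2 1.42.0, the compared libraries alone, a replicate block and leaving out each library. The script was tested on simulated data.

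The members and lists were chosen with earlier results of these data known. Named members are those called with the largest changes (up to 8 in each direction, or 4 for differences of effects and between knockouts), up to 5 listed at 0 per comparison, the 12 highest per kb on each day, and the highest of each family of at least 3. Other members were named to complete a family, a copy pair or a chromosome, after their values were seen.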

Additional observations from a re-analysis of the deposited data

Results flagged for a closer look

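The effects of a knockout at day 2 and day 3 differed by the interaction test for 26 members with KMT1 and 22 with KMT5A. The cause of these differences was not tested.

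With KMT1, the difference of the log2 effect (day 3 minus day 2) was 2.39 for SLC12A3 (PM13099), 1.43 for SLC6A8 (PM18341), 1.26 for SLC5A8 (PM11608) and 1.09 for SLC6A8 (PM09796). It was -1.38 for SLC38A2, -1.26 for SLC5A6, -0.99 for SLC8B1 and -0.92 for SLC2A1. With KMT5A, it was 2.10 for SLC12A3 (PM13099), 1.39 for SLC6A8 (PM18341), 1.24 for SLC66A1 (PM17309) and 0.91 for SLC16A14. It was -1.11 for SLC38A2, -1.08 for SLC26A5, -0.81 for SLC8B1 and -0.79 for SLC5A6. SLC16A14 lost its call in 13 of the 15 alternatives run for it, and SLC12A3 (PM13099) and SLC38A2 lost theirs in 0 of 15 in either knockout. With KMT5A, calls were lost in 7 for SLC66A1 (PM17309), 5 for SLC5A6, 5 for SLC8B1, 4 for SLC26A5 and 1 for SLC6A8 (PM18341). With KMT1 they were lost in 5 for SLC2A1, 2 for SLC5A8 (PM11608), 0 for SLC5A6, and 1 each for SLC8B1 and the SLC6A8 copies PM18341 and PM09796. SLC66A1 (PM17309) was at 1.25 and 0.908 CPM in day 3 wildtype and 2.27 and 2.0 CPM in day 3 KMT5A knockouts.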

How the results depend on the processing

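Members named for the largest called changes were followed under the alternatives, each in the comparison that named it. Of those values, 755 kept direction and side of the threshold, 242 lost their call and 0 reversed. Changes picked for their size could hardly reverse, so the 0 says little about other members. For the comparisons in the order KMT1 and KMT5A at day 2, KMT1 and KMT5A at day 3, and the changes of the KMT1 and KMT5A effects between days, the main counts of called members were 27, 22, 15, 12, 26 and 22. With library size alone they were 6, 8, 3, 4, 4 and 8, and with DESeq2 47, 40, 40, 25, 45 and 43. In the same order, library size alone called 3.09%, 4.12%, 1.55%, 2.06%, 2.06% and 4.12% of members. Of all genes it called 2.27%, 2.1%, 1.61%, 1.86%, 1.39% and 1.69%. DESeq2 called 25.4%, 20.6%, 20.6%, 12.9%, 23.2% and 22.2% of the members to which it gave an adjusted p. Of all genes with an adjusted p DESeq2 called 19.2%, 16.3%, 17.4%, 16.1%, 21.2% and 21.6%. With library size alone the median log2 fold change of all genes in wildtype over time moved from -0.32 to -0.63, and SLC49A3 and SLC4A1AP, called higher there, changed sign to -0.17 and -0.14 without a call. The compared libraries alone gave 50 and 30 for KMT1 and KMT5A at day 2, and 0 for each knockout at day 3 and for KMT5A against KMT1 on either day. The chi-square per gene between the 2 libraries of a group, without the 2 unnamed gene models rich in 2 libraries, was 151 in day 3 KMT1 and 307 in day 3 KMT5A knockouts, against 25.7 to 31.6 in the other groups. Without both libraries rich in those 2 gene models, an alternative chosen after seeing the data, the count was 34 for KMT1 at day 3, 46 and 34 for the changes of effect, and 16 for KMT5A against KMT1 at day 3. KMT5A against KMT1 gave 16 at day 3 with DESeq2, and at day 2 gave 1 with library size alone and 1 when only members above 0 were counted. The causes of these moves were not tested.

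Leaving out 1 library gave, in the order above, 13 to 15, 10 to 14, 4 to 20, 6 to 25, 12 to 32 and 11 to 38 calls, 135 to 140 for wildtype over time, and 2 to 4 and 6 to 13 for KMT5A against KMT1 at day 2 and day 3. In these fits the lone library of an arm is assumed to vary like the other groups. The day 3 KMT1 count was 4 without day 3 wildtype replicate 2 and 20 without day 3 KMT1 replicate 2. With the replicate number as a block, the counts were 25, 18, 10, 11, 23 and 19, and 142 for wildtype over time. For KMT1 at day 3 the block gave 7 higher and 3 lower. The labels do not say that equal numbers mark a shared clutch or day. The correlations of replicate deviations between groups ran from -0.094 to 0.064. Each deviation came from only 2 libraries, so these values cannot decide whether equal numbers share a clutch or day. With 2 libraries a group, small changes of members near 1 CPM can be missed, and how often was not tested.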
